A study of Mus musculus with 6 samples.

Results

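The comparison was between 2 RNA samples labelled as splenic MDSCs from Tnfr1-/- mice and 2 so labelled from WT mice, which are 4 of the 6 samples of the series. It covered all 8191 genes of the deposited table. Samples were taken by their genotype label. The other 2 samples came from Tnfr2-/- mice and entered the model to estimate the spread between replicates.

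MDSCs are immature myeloid cells that carry CD11b and Gr-1 and accumulate with age, cancer and inflammation. According to the study's methods, all mice were old, had the BALB/c background and were matched for sex, and the cells of several animals were pooled for each experiment. The labels name neither another allele nor an agent, and the cells were not cultured. Expression is given as FPKM, which counts fragments relative to transcript length and to the number of mapped fragments, with 1 value per gene and sample.

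TNF acts through 2 receptors. TNFR1, the product of Tnfrsf1a, is found on most cells and carries a death domain, through which it assembles TRADD, RIPK1 and TRAF proteins. From this complex NF-kB and the JNK and p38 kinases are activated, or, when the complex changes, caspase-8 or the necroptosis kinases RIPK3 and MLKL. TNFR2, the product of Tnfrsf1b, lacks a death domain and is found mainly on leukocytes and endothelium.

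The targeted gene Tnfrsf1a (chromosome 6, 125349362 to 125362484, plus strand, GRCm38) was not analysed here, so the genotype could not be checked on it. Nor were Itgam, Ly6g, S100a8 and S100a9, which define MDSCs. Of the Y-linked genes, Ddx3y, an RNA helicase, was listed at 3.79 and 3.44 FPKM in WT and at 0 in both Tnfr1-/- samples. Eif2s3y was listed at 0.903 and 0.792 FPKM in WT, and it was at 0 in both Tnfr1-/- samples. All 4 listed Y-linked genes were at 0 in the Tnfr1-/- samples and above 0 in WT, so the sex of the donors and the genotype cannot be told apart.

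The samples labelled WT went against their MDSC label in the listed markers. Ly6c1, a gene of the Gr-1 antigens, was at 0.159 and 0.0638 FPKM in them, and the granulocyte gene Retnlg at 2.30 and 2.13 FPKM. The macrophage genes Spp1 and Marco stood at 3119 and 3238 FPKM and at 409 and 372 FPKM. Tnfr1-/- samples had Ly6c1 and Retnlg and nearly no Spp1 or Marco. The cell source of the samples labelled WT and the genotype therefore cannot be told apart, and this applies to every difference from WT given here.

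The listed genes summed to 344714 and 346870 FPKM in WT and to 134343 and 133604 FPKM in Tnfr1-/- samples. WT values carried up to 10 significant digits and Tnfr1-/- values up to 6. The way the values were made and the genotype cannot be told apart. Each listed gene had passed the authors' own test over the 3 genotypes, so every gene tested here had been picked for a difference among these samples. For this reason each result is given as deposited and after median-ratio scaling, in which each sample is divided by the median ratio of its genes to their geometric mean over samples. The size factors were 1.67 and 1.66 for WT and 0.767 and 0.740 for Tnfr1-/-.

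As deposited, most genes were lower in Tnfr1-/- MDSCs. The median difference on the log2(FPKM + 1) scale was -0.83, and it was -0.03 after scaling. With the thresholds of the study (adjusted p under 0.05 and a change of more than 1.5-fold), 6124 of 8191 genes (74.8%) differed as deposited. Of these 1151 (14.1%) were higher and 4973 (60.7%) were lower in Tnfr1-/-. After scaling, 3722 genes (45.4%) differed, 1908 (23.3%) higher and 1814 (22.1%) lower.

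**Figure D1:**
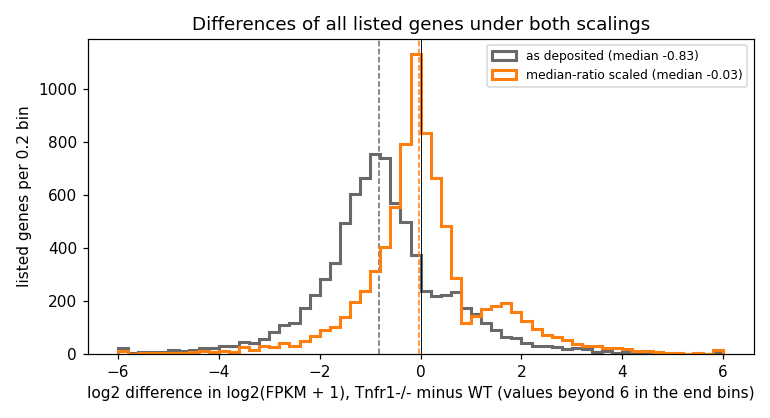
Number of listed genes by their difference in log2(FPKM + 1), Tnfr1-/- minus WT (bins of 0.2), as deposited (grey) and after median-ratio scaling (orange). Dashed lines mark the medians of -0.83 and -0.03. A second, smaller group of genes lies to the right of the main peak in both.

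The scaling raised the differences by less than the distance between the thresholds for a fall and for a rise. A call therefore could not turn around, and the overlaps given next follow largely from this shift. All 1151 genes called higher as deposited were also higher after scaling, and all 1814 called lower after scaling were lower as deposited. Thus 2965 genes (36.2%) differed in the same direction under both, 1151 higher (14.1%) and 1814 lower (22.1%). The counts of each gene list below are to be read beside these shares. A further 3159 genes were lower as deposited only, and 757 were higher after scaling only. The differences below concern mainly genes called under both scalings, and log2 differences are given as deposited, then scaled. Among the genes called under both, 105 were lower and 61 were higher by over 10-fold under both.

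**Figure D2:**
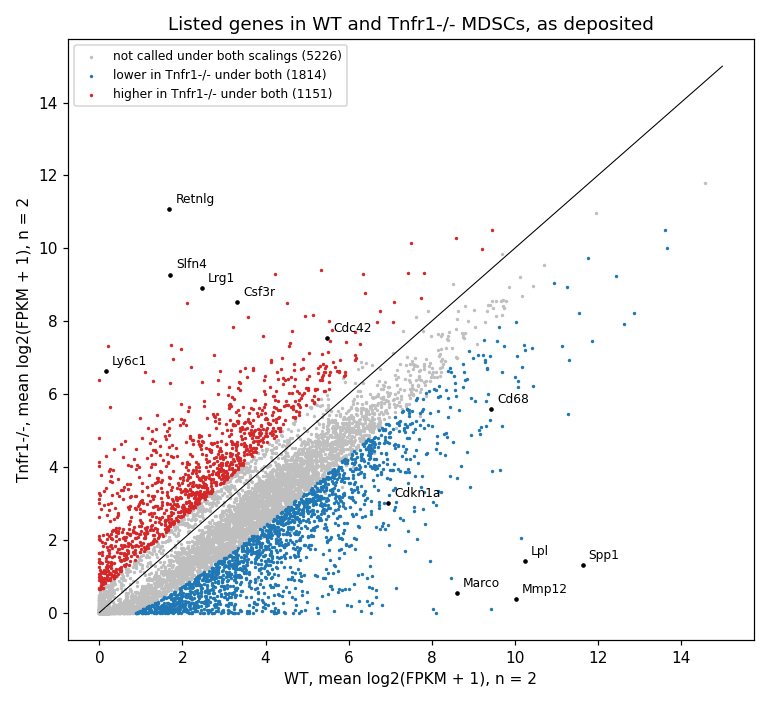
Mean log2(FPKM + 1) of each listed gene in WT (horizontal) and Tnfr1-/- MDSCs (vertical), as deposited, n = 2 each. Blue marks the 1814 genes lower and red the 1151 genes higher under both scalings, and the line marks equal values. Spp1, Mmp12, Lpl and Marco lie near the horizontal axis, and Retnlg, Slfn4 and Ly6c1 near the vertical axis.

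The largest falls were in genes of macrophages. Spp1, which encodes the secreted phosphoprotein osteopontin (chromosome 5, 104435118 to 104441050, GRCm38), was at 3119 and 3238 FPKM in WT and at 1.67 and 1.26 FPKM in Tnfr1-/- MDSCs. Its log2 difference was -10.34 (SE 0.14, adjusted p = 5.13e-06) and -9.35 after scaling. Mmp12, the macrophage elastase, was at 1095 and 994 FPKM against 0.221 and 0.386 FPKM. Spp1 had rank 10 among the listed genes of the WT samples by level, and both genes were near 0 in both Tnfr1-/- samples.

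Gpnmb, a glycoprotein of phagocytes, was at 699 and 675 FPKM in WT and at 0.0701 and 0.0891 FPKM in Tnfr1-/-. The scavenger receptor gene Marco fell from 409 and 372 FPKM to 0.451 and 0.4496 FPKM. Lpl, lipoprotein lipase, was at 1201 and 1233 FPKM in WT and at 2.00 and 1.36 FPKM in Tnfr1-/-. The fatty acid binding protein genes Fabp5 and Fabp4 had log2 differences of -8.10 and -7.52, and Atp6v0d2, a subunit of the vacuolar proton pump, one of -7.93. Mgl2, a lectin, and Mfge8, a bridging molecule for the uptake of dying cells, had log2 differences of -6.62 and -6.54. Plet1 was listed at 271 and 282 FPKM and Ccl17, a ligand of CCR4, at 95.6 and 87.5 FPKM in WT, and both were listed at 0 in the Tnfr1-/- samples.

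Of 36 macrophage genes, 32 were listed, 31 were lower as deposited and 25 of these were lower under both scalings. Cd163, the haemoglobin scavenger receptor of tissue macrophages, alone was higher, at 0.347 and 0.359 FPKM in WT and 1.99 and 2.38 FPKM in Tnfr1-/-. The median of the list was -4.17 as deposited and -3.05 scaled, beside -0.83 and -0.03 over all listed genes. Cd68, a lysosomal membrane glycoprotein of macrophages, was at 682 and 701 FPKM in WT and 44.4 and 50.2 FPKM in Tnfr1-/-. Adgre1, which encodes F4/80, was at 95.9 and 109 FPKM in WT and 12.2 and 13.4 FPKM in Tnfr1-/-. The 2 groups did not overlap for either gene, which was so for most listed genes. As deposited, the Tnfr1-/- samples lay wholly above WT in 1776 of the 8191 listed genes and wholly below in 6331. The list summed to 15890 and 16160 FPKM in WT and to 722 and 747 FPKM in Tnfr1-/-.

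The largest rises were in genes of neutrophils and monocytes. Retnlg, a secreted resistin-like protein of granulocytes (chromosome 16, 48872621 to 48874496), was at 2.30 and 2.13 FPKM in WT and at 2364 and 1961 FPKM in Tnfr1-/-. Its log2 difference was 9.39 (SE 0.24, adjusted p = 1.24e-05) and 10.26 after scaling. It was the second most abundant listed gene of the Tnfr1-/- samples. Mmp9, gelatinase B of the tertiary granules, was at 3.13 and 3.46 FPKM against 411 and 316 FPKM.

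Csf3r, the receptor for the granulocyte colony-stimulating factor, was at 9.99 and 8.07 FPKM in WT and at 294 and 454 FPKM in Tnfr1-/-. Of 42 mature neutrophil genes, 18 were listed, and 14 were higher and 3 lower under both scalings, with medians of 2.84 and 3.95. The 3 lower members were the chemokine Ccl6 (6319 and 6410 against 204 and 282 FPKM), the protease inhibitor Stfa1 and the receptor Tlr2, which macrophages also express. With Ccl6 included, the list summed to more in WT (7055 and 7072 FPKM) than in Tnfr1-/- (3249 and 3530 FPKM) as deposited, but the sums overlapped after scaling (4229 and 4262 against 4236 and 4769). Of 22 secondary and tertiary granule genes, 5 were listed. Of these 3 were higher under both scalings, Hp, the haemoglobin-binding haptoglobin, included (18.1 and 17.4 against 640 and 624 FPKM). The chitinase-like gene Chil3 was lower, and the list summed to 26550 and 28630 FPKM in WT and 7971 and 6099 FPKM in Tnfr1-/-. Most of this sum in WT was Lyz2, a lysozyme gene that macrophages also express, at 23647 and 25540 FPKM against 4203 and 2946 FPKM, which was not called after scaling (adjusted p = 0.142). The only listed member of the primary granule genes was the transcription factor gene Cebpa, which was lower (110 and 115 against 15.3 and 17.5 FPKM).

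Ly6c1, 1 of 2 genes for the monocyte antigen Ly6C that anti-Gr-1 also binds, was at 0.159 and 0.0638 FPKM in WT and at 95.8 and 99.6 FPKM in Tnfr1-/-. Its log2 difference was 6.47 (adjusted p = 1.64e-05) and 6.94 after scaling. Of 16 listed monocyte genes 11 were higher and 1, the calcium-binding S100a4, was lower under both scalings. Klf2, a transcription factor that restrains activation of myeloid cells, was at 226 and 335 FPKM in Tnfr1-/-, and its log2 difference was 4.52. The list summed to 891 and 859 FPKM in WT and 1742 and 2109 FPKM in Tnfr1-/-. Thus Ly6c1 was near 0 in both libraries labelled WT.

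Other genes with large rises were Slfn4, of the Schlafen family (2.26 and 2.24 against 560 and 688 FPKM), Steap4, a metalloreductase, Lrg1, a secreted glycoprotein of neutrophil granules, and Ctse, an aspartic protease. Mrgpra2b and Asprv1 had log2 differences of 5.40 and 5.28 as deposited. Evi2b, a membrane protein gene of leukocytes, was listed at 0 in both WT samples and at 81.2 and 84.3 FPKM in Tnfr1-/-. Of the 50-base windows of the Evi2b transcripts 98.6% occur in another annotated gene, and of those of Mrgpra2b 81.2%, so both values are uncertain. In all, 16 genes were listed at 0 in both WT samples and above 1 FPKM in both Tnfr1-/- samples, and 43 genes showed the converse.

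Lymphocyte genes were also higher in Tnfr1-/- samples. Of 10 listed B cell genes, 9 were higher under both scalings, with medians of 2.71 and 3.70. Cd79a, a subunit of the B cell receptor, was at 23.6 and 22.5 FPKM in WT and 192 and 149 FPKM in Tnfr1-/-. Pax5, the B cell transcription factor, had a log2 difference of 3.14 and Cr2, a complement receptor, one of 3.47. The list summed to 251 and 292 FPKM in WT and 1922 and 1268 FPKM in Tnfr1-/-.

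Of 9 listed T and NK cell genes, 8 were higher under both scalings. Tcf7, the factor TCF-1, was at 1.30 and 1.36 FPKM in WT and 19.1 and 30.8 FPKM in Tnfr1-/-, and the adhesion receptor gene Cd2 at 6.36 and 6.41 FPKM against 35.7 and 42.2 FPKM. Cd4, which some macrophages also express, was the lower one (24.2 and 25.7 against 4.89 and 4.27 FPKM). The list summed to 64.0 and 69.3 FPKM in WT and 143 and 188 FPKM in Tnfr1-/-.

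**Figure D3:**
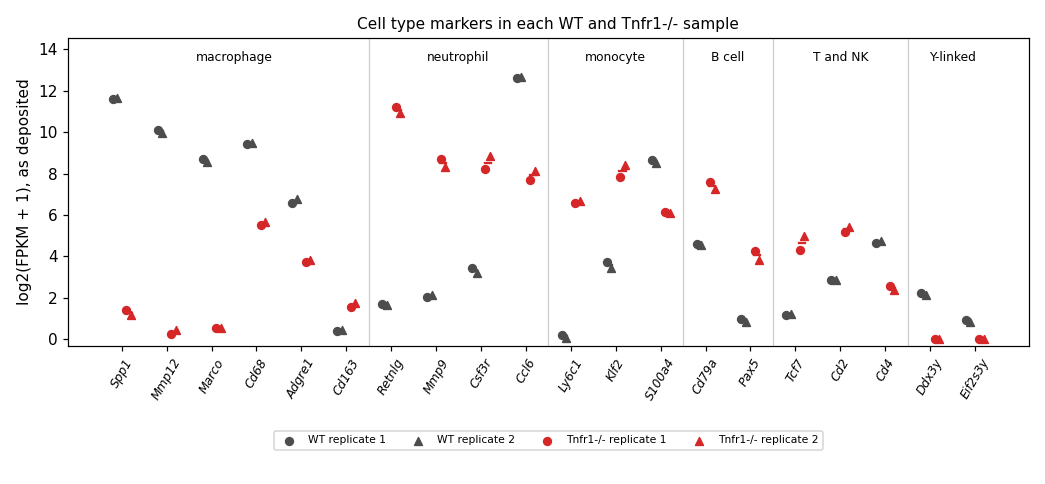
Expression of cell type markers, log2(FPKM + 1) as deposited, in each WT (grey) and Tnfr1-/- (red) sample, with circles for replicate 1, triangles for replicate 2 and short bars for means. The groups do not overlap for any of the genes, which holds for most listed genes. WT is higher for the macrophage genes except Cd163, and for Ccl6, S100a4, Cd4 and the Y-linked genes.

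Among other cells, 22 dendritic cell and antigen presentation genes were listed, and 14 were lower and 3 higher under both scalings. Itgax, the integrin CD11c, was at 219 and 216 FPKM in WT and 12.5 and 12.6 FPKM in Tnfr1-/-. H2-DMb1, which loads peptides onto MHC class II, had a log2 difference of -4.99, and Cd24a, a small membrane sialoglycoprotein, one of 3.19. Of 6 listed platelet genes, 4 were lower under both scalings, Clec1b, Pf4 and Vwf among them. Of 17 listed mast cell, basophil and eosinophil genes, 5 were lower and 3 higher under both scalings. The higher ones included Ccr3, an eosinophil chemokine receptor, with a log2 difference of 3.27, and the eosinophil ribonuclease family gene Ear2 fell from 2417 and 2560 FPKM to 43.9 and 41.5 FPKM. In 4 listed endothelial and stromal genes the sums were 13.2 and 12.6 FPKM in WT and 1.33 and 1.60 FPKM in Tnfr1-/-. The erythroid genes, 5 listed, summed to 49.8 and 47.9 FPKM against 62.8 and 55.2 FPKM, and the stem and progenitor genes, 8 listed, to 223 and 227 FPKM against 51.8 and 51.7 FPKM. In these bulk samples fewer cells of a type and less RNA per cell cannot be told apart. The part that cell composition, donor sex and the making of the values have in the differences below was not tested.

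Genes of the TNF pathway were called in both directions, as were the listed genes as a whole. Of 35 ligands and receptors of the TNF superfamily, 24 were listed, and 6 were higher and 7 lower under both scalings. The shares over all listed genes were 14.1% higher and 22.1% lower. The median of the TNF superfamily list was -0.95 as deposited and -0.12 scaled, near that of all genes. A difference of this list from all listed genes was not tested. Tnf was at 27.9 and 24.2 FPKM in WT and 30.4 and 25.9 FPKM in Tnfr1-/-. The groups overlapped as deposited and the difference was 0.11 (adjusted p = 0.380), whereas after scaling it was 1.20 (adjusted p = 0.000451).

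Ltb, lymphotoxin beta, rose from 21.6 and 26.1 FPKM to 192 and 229 FPKM, and Tnfsf14, the ligand LIGHT, from 3.23 and 2.48 FPKM to 29.3 and 40.5 FPKM. Tnfrsf13c, the BAFF receptor of B cells, was at 2.04 and 2.35 FPKM in WT and 24.7 and 20.3 FPKM in Tnfr1-/-. Tnfrsf9, the costimulatory receptor 4-1BB, fell from 6.43 and 5.75 FPKM to 0.292 and 0.431 FPKM. Tnfrsf12a, the receptor of TWEAK, was at 15.5 and 17.9 FPKM in WT and 2.01 and 2.47 FPKM in Tnfr1-/-, and Tnfrsf23, a decoy receptor, had a log2 difference of -2.24. Thus Ltb, Tnfsf14 and Tnfrsf13c were among the higher genes, and Tnfrsf9, Tnfrsf12a and Tnfrsf23 among the lower ones.

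Tnfrsf1b, the other TNF receptor (chromosome 4, 145213463 to 145246870, minus strand), was at 112 and 115 FPKM in WT and at 47.8 and 69.6 FPKM in Tnfr1-/-. The groups did not overlap as deposited, like those of most listed genes, with a log2 difference of -0.96 (SE 0.21, adjusted p = 0.00672). After scaling the difference was 0.17 (adjusted p = 0.499), so both the direction and the call depended on the scaling.

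Of 30 genes of the complex behind the receptors, 21 were listed, 4 higher and 3 lower under both scalings, with medians of -0.74 and 0.33. These shares (19.0% and 14.3%) were not far from the 14.1% and 22.1% of all listed genes. Tab2, an adaptor of the kinase TAK1, was at 14.7 and 13.2 FPKM in WT and 39.1 and 46.4 FPKM in Tnfr1-/-. Birc3, the ubiquitin ligase cIAP2, was at 15.3 and 14.9 FPKM against 31.1 and 31.3 FPKM, and Traf3, another ubiquitin ligase, at 6.70 and 6.24 FPKM against 10.9 and 10.1 FPKM. The call of Traf3 was lost without WT replicate 2 or without Tnfr1-/- replicate 1, where the differences were 0.58 and 0.57. The necroptosis genes were lower. Mlkl was at 17.5 and 18.5 FPKM in WT and 1.33 and 1.46 FPKM in Tnfr1-/-, and Ripk3 at 38.1 and 39.5 FPKM against 7.64 and 8.06 FPKM. Tnip1, a partner of the deubiquitinase A20, had a difference of -1.77 as deposited and -0.68 scaled.

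**Figure D4:**
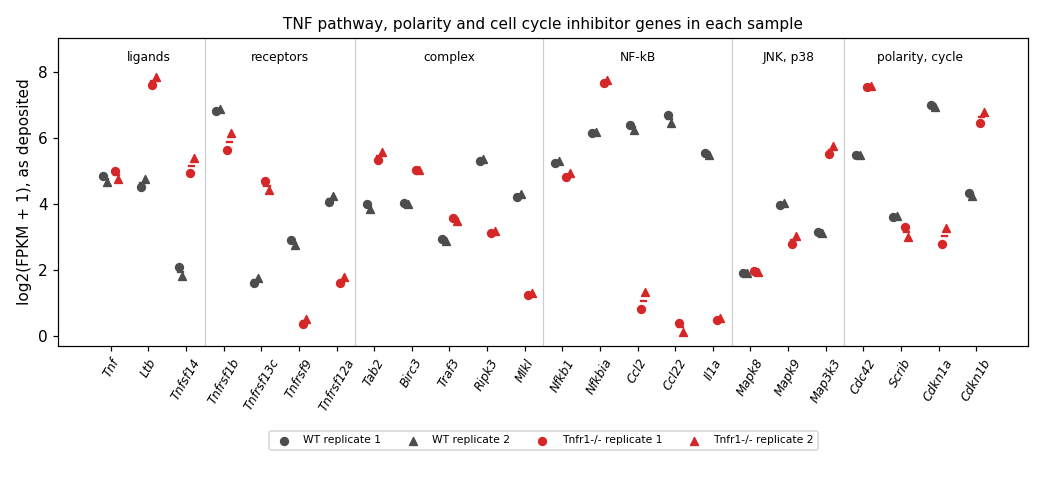
Expression of genes of the TNF pathway, of polarity and of cell cycle inhibition, log2(FPKM + 1) as deposited, in each WT (grey) and Tnfr1-/- (red) sample, with circles for replicate 1, triangles for replicate 2 and short bars for means. The groups overlap for Tnf and, as in most listed genes, do not overlap for the other genes, and they lie closest for Mapk8.

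Of 43 genes commonly induced by NF-kB, 24 were listed, and 12 were lower and 3 higher under both scalings, with medians of -1.98 and -0.98. The chemokine gene Ccl22 was at 102 and 86.4 FPKM in WT and 0.303 and 0.0911 FPKM in Tnfr1-/-. Ccl2, the ligand of CCR2, was at 82.6 and 74.6 FPKM against 0.749 and 1.48 FPKM, and Il1a, interleukin 1 alpha, at 45.2 and 43.5 FPKM against 0.400 and 0.440 FPKM. The higher members were Clec4e, a lectin receptor, Birc3 and Nfkbia, the inhibitor that holds NF-kB in the cytoplasm. Nfkbia was at 68.9 and 71.1 FPKM in WT and 202 and 213 FPKM in Tnfr1-/-, with a log2 difference of 1.55 (adjusted p = 0.000890) and 2.68 scaled. Nfkb1, the only other listed gene of the subunits and inhibitors, had a difference of -0.40 as deposited, which was under the fold threshold, and of 0.71 scaled.

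Promoters of 250 bases before to 50 bases after the start (RefSeq, GRCm38.p6) were matched for 6593 of the listed genes. The letters GGGANNTTCC of a strong NF-kB site, on either strand, were in 2 of 19 promoters of the targets, subunits and inhibitors (10.5%), in 1.37% of all listed genes and in 1.43% of all promoters. Those 2 promoters are shown because one belongs to a gene that rose and the other to a gene with lower values. Capitals mark the motif. The Nfkbia window is chr12:55492648-55492698 (minus strand) and the Cxcl3 window chr5:90786006-90786059 (plus strand).
Nfkbia: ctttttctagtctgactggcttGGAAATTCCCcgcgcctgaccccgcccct
Cxcl3: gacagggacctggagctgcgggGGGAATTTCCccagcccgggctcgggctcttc
Cxcl3, a neutrophil chemokine, was at 4.08 and 3.13 FPKM in WT and 0.107 and 0.418 FPKM in Tnfr1-/-, and it was called as deposited (-1.87, adjusted p = 0.00732) but not after scaling (-1.24, adjusted p = 0.0564). So the 2 genes with this motif differed in opposite directions as deposited. The motif was in 1.53% of the promoters of genes higher and 1.43% of those of genes lower under both scalings.

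Apoptosis genes (20 listed of 30) were lower more than higher, with 9 lower and 3 higher under both scalings and medians of -1.17 and -0.07. Bax, which permeabilizes the mitochondrial membrane, fell from 155 and 147 FPKM to 5.04 and 5.13 FPKM. Bcl2a1b, one of several near-identical survival genes between which reads may be split, was at 307 and 289 FPKM in WT and 9.48 and 8.33 FPKM in Tnfr1-/-. In the other direction Mcl1, a survival factor of neutrophils, was at 84.7 and 82.4 FPKM against 378 and 498 FPKM, and Xiap, a caspase inhibitor, at 4.23 and 3.87 FPKM against 16.5 and 16.6 FPKM.

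In the JNK and p38 cascade more genes were higher than lower. Of 42 genes 24 were listed, and 11 were higher and 1 lower under both scalings, with medians of 0.04 and 0.75. The shares were 45.8% higher and 4.17% lower, beside 14.1% and 22.1% of all listed genes. Map3k3, an upstream kinase, was at 7.89 and 7.57 FPKM in WT and 44.1 and 52.6 FPKM in Tnfr1-/-. Mapk11, a p38 kinase, and Dusp2, a phosphatase of MAP kinases, had log2 differences of 2.31 and 1.95, and the phosphatase gene Dusp19 was lower (-1.43).

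The JNK genes Mapk8, Mapk9 and Mapk10 were listed, and no call held under both scalings. Mapk10, which encodes the neuronal JNK3, was listed at 0.0691 and 0.0761 FPKM in WT and at 0 in both Tnfr1-/- samples. Mapk8, which encodes JNK1, was at 2.73 and 2.76 FPKM in WT and 2.91 and 2.83 FPKM in Tnfr1-/- (0.05 as deposited, adjusted p = 0.569, and 0.86 scaled, adjusted p = 0.000382). Mapk9, which encodes JNK2, was at 14.5 and 15.2 FPKM against 5.92 and 7.12 FPKM (-1.08 as deposited and -0.05 scaled, and 0.16 when the samples were set to the same sum).

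Of 42 polarity genes 19 were listed, and 4 (21.1%) were higher and 0 lower under both scalings at adjusted p under 0.05 in limma. Of all listed genes 14.1% were higher and 22.1% lower under both. As deposited 8 of the 19 were lower, and after scaling 8 were higher and 0 lower. Over all listed genes 60.7% were lower as deposited and 23.3% higher after scaling. Cdc42, a small GTPase of polarity and of actin assembly (chromosome 4, 137319696 to 137357720), was at 43.6 and 43.8 FPKM in WT and 184 and 189 FPKM in Tnfr1-/-. Its log2 difference was 2.06 (SE 0.07, adjusted p = 2.23e-05) and 3.19 scaled. Scrib, the scaffold of the basolateral complex, was at 11.1 and 11.2 FPKM against 8.78 and 6.88 FPKM, a difference of -0.47 as deposited, which did not pass the fold threshold, and 0.56 scaled. The planar polarity genes Prickle3 and Celsr3 had differences of 1.31 and 0.97.

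The cyclin-dependent kinase inhibitors moved apart. Cdkn1a, which encodes p21 (chromosome 17, 29090976 to 29100727), fell from 126 and 120 FPKM in WT to 5.80 and 8.55 FPKM in Tnfr1-/-, with a log2 difference of -3.95 as deposited (SE 0.45, adjusted p = 0.000729) and -2.86 scaled. Cdkn1b, which encodes p27, rose from 19.1 and 17.8 FPKM to 85.8 and 109 FPKM, and Cdkn2d, which encodes p19, from 10.2 and 11.3 FPKM to 95.9 and 81.2 FPKM. In the whole list 18 of 26 genes were listed, with 3 higher and 6 lower under both scalings and medians of -1.20 and -0.11. Ccnd1, cyclin D1, and Hmga1, a chromatin protein, were among the lower ones (-2.96 and -3.53). All 40 listed cell cycle and DNA replication genes were lower as deposited and 10 of them (25%) after scaling, the latter near the 22.1% of all listed genes. The list summed to 841 and 852 FPKM in WT and 319 and 209 FPKM in Tnfr1-/- as deposited, and to 504 and 514 against 416 and 282 after scaling.

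Of 33 genes of MDSC suppressive function 13 were listed, with 2 higher (15.4%) and 1 lower (7.69%) under both scalings. Of all listed genes 14.1% were higher and 22.1% lower. Alox5ap, needed for leukotriene synthesis, was at 176 and 165 FPKM in WT and 644 and 639 FPKM in Tnfr1-/-, and Ncf4, a cytosolic subunit of the NADPH oxidase, at 45.0 and 46.3 FPKM against 197 and 157 FPKM. Cyba, its membrane subunit, was lower (-2.07 and -0.93). Arg1 and Nos2 were not analysed here.

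**Figure D5:**
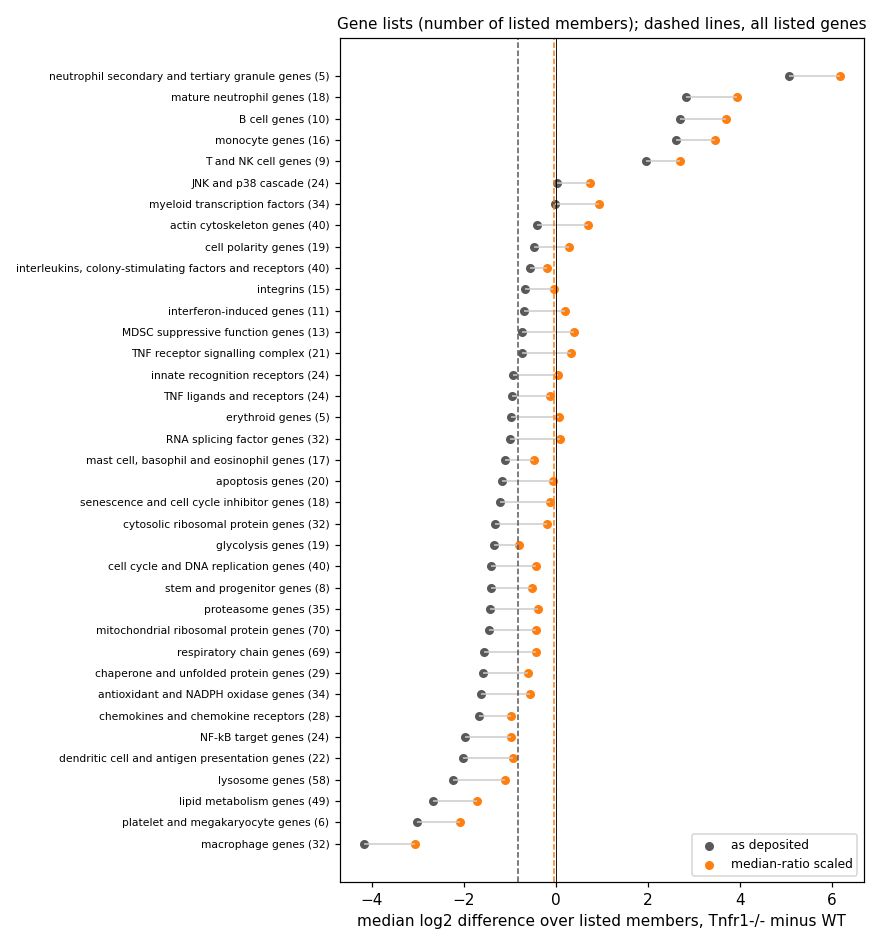
Median difference in log2(FPKM + 1), Tnfr1-/- minus WT, of the listed members of each gene list with at least 5 of them, as deposited (grey) and after median-ratio scaling (orange). Dashed lines mark the medians of all listed genes (-0.83 and -0.03). Macrophage genes have the lowest medians (-4.17 and -3.05), and neutrophil, B cell, monocyte and T and NK cell genes the highest.

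Lysosomes hold the hydrolases with which phagocytes degrade what they take up, and the factors TFEB and MITF bind a palindromic motif in many of their promoters. Of 58 listed lysosome genes (of 60), 42 were lower and 2 higher under both scalings. Their medians were -2.24 and -1.10. Ctsl, a cathepsin, was at 223 and 222 FPKM in WT and 6.55 and 5.71 FPKM in Tnfr1-/-, and Ctsk, another, at 39.7 and 40.0 FPKM against 0.307 and 0.417 FPKM. The higher genes were Ctse (1.22 and 1.07 against 94.8 and 98.3 FPKM) and Sgsh, a sulfatase of heparan sulfate. The list summed to 28950 and 29610 FPKM in WT and 3136 and 3342 FPKM in Tnfr1-/-.

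The motif of these factors, TCACGTGA, which reads the same on both strands, was in 6 of 43 lysosome promoters (14.0%), in 1.99% of the listed genes and in 1.01% of all promoters. It was in 2.66% of the promoters of genes lower and 1.64% of those higher under both scalings. Windows around it are shown for 3 lysosome genes that were lower under both scalings, with the motif in capitals. They are chr7:142387897-142387948 (Ctsd, minus strand), chrX:134601204-134601255 (Gla, minus strand) and chr8:3500451-3500502 (Mcoln1, plus strand).
Ctsd: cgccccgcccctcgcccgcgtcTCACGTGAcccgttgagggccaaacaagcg
Gla: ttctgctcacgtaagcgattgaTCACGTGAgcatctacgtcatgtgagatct
Mcoln1: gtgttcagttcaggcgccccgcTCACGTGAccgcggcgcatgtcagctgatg
Ctsd, cathepsin D, fell from 7250 and 7829 FPKM to 271 and 324 FPKM, Gla, alpha-galactosidase A, from 44.0 and 41.4 FPKM to 4.48 and 5.48 FPKM, and Mcoln1, a calcium channel of the lysosome, from 33.7 and 31.5 FPKM to 7.65 and 7.72 FPKM.

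Of 49 listed lipid metabolism genes 36 were lower and 0 higher under both scalings by limma at an adjusted p under 0.05, with medians of -2.66 and -1.71, and 1 was higher after scaling only. In cholesterol synthesis, factors regulated by sterols bind elements with the letters TCACNCCAC. These were in 1 of 16 promoters of listed genes of that pathway and its regulation (6.25%) and in 1.14% of the listed genes. The gene with the motif, Hmgcs1 (HMG-CoA synthase), was at 74.1 and 73.3 FPKM in WT and 9.57 and 8.35 FPKM in Tnfr1-/-. Its window is chr13:119690192-119690244, plus strand.
Hmgcs1: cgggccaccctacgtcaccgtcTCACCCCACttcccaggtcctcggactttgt

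Genes of energy metabolism and protein turnover were mostly lower as deposited, and fewer of them were lower after scaling. All 69 listed respiratory chain genes were lower as deposited and 28 (40.6%) after scaling (medians -1.56 and -0.43). Of all listed genes 60.7% were lower as deposited and 22.1% after scaling. Of 70 mitochondrial ribosomal protein genes 26 were lower (37.1%) and 3 higher under both, and of 35 proteasome genes 11 were lower (31.4%). Of 19 listed glycolysis genes 10 were lower and 2 higher under both. The neuronal-type aldolase gene Aldoc fell from 58.7 and 60.9 FPKM to 0.695 and 0.465 FPKM, whereas Slc2a3, the glucose transporter GLUT3, rose from 2.39 and 2.14 FPKM to 84.6 and 72.2 FPKM. Among 34 listed antioxidant and NADPH oxidase genes 14 were lower and 2 higher, with Prdx1, a peroxiredoxin, at 1457 and 1311 FPKM in WT and 74.5 and 72.8 FPKM in Tnfr1-/-. Chaperone genes (29 listed) were lower in 14 and higher in 2, and splicing factor genes (32 listed) lower in 2 and higher in 4.

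Some genes differed by far more than their list, genes with many processed copies in the genome among them. Of 32 listed cytosolic ribosomal protein genes 12 were lower and 2 higher under both scalings. Rps2 was at 779 and 819 FPKM in WT and 16.4 and 12.1 FPKM in Tnfr1-/-, whereas Rps27 was at 387 and 380 FPKM against 1299 and 1206 FPKM, and 43.0% of the 50-base windows of the Rps2 transcripts occur in another annotated gene. Gapdh, at 65.3 and 74.6 FPKM in WT and 2.69 and 2.07 FPKM in Tnfr1-/-, shares 24.7%. Rpl35a, which shares 6.18%, had a log2 difference as deposited of -5.62, beside -5.73 for Rps2. Aldoc, which shares no window, had one of -5.27, beside -4.395 for Gapdh. Of the genes named elsewhere, Ly6c1 shares 32.8%, Ear2 41.5%, S100a4 47.4%, Il11ra1 46.3% and Hmga1 55.0%. Values of such genes are uncertain, since reads may be split between copies. Over the 362 genes with at least 25% shared windows the medians were -0.80 and -0.02, and over the 4434 genes without any -0.85 and -0.07. Only exact matches between annotated transcripts were counted, so copies that differ in sequence or are not annotated were missed. The part of shared reads in these differences was not tested.

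The difference also varied with transcript length. In the quintile of genes with the shortest transcripts (351 to 1926 bases for the longest annotated one) the median was -1.21 as deposited and -0.29 scaled, and in the quintile with the longest it was -0.32 and 0.31. In the shortest quintile 135 genes were higher and 550 lower under both scalings, against 415 higher and 204 lower in the longest.

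Chemokines and their receptors (28 listed) were lower in 17 and higher in 7 under both scalings. Besides Ccl17, Ccl22 and Ccl2, Cxcl16, a membrane-bound ligand of CXCR6, fell from 140 and 140 FPKM to 0.644 and 0.554 FPKM. The receptors Cxcr5, Cxcr3 and Ccr3 rose by 3.06, 2.86 and 3.27 on the log2 scale as deposited. So among the genes named here, which are mostly the largest falls and rises of the list, the ligands were lower and the receptors higher. Ligands and receptors were not counted apart over all 28 listed members.

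Of 40 listed interleukin, colony-stimulating factor and receptor genes 11 were higher and 10 lower under both scalings. Il18 fell from 70.7 and 72.3 FPKM to 3.07 and 2.99 FPKM, and Il11ra1, a receptor of interleukin 11, had a difference of -5.23. Among 11 listed interferon-induced genes 4 were higher and 4 lower, Slfn1 (4.63) being one of the higher. Of 24 innate recognition receptors 9 were higher and 6 lower, of 15 integrins 2 were higher and 3 lower, and of 40 actin cytoskeleton genes 9 were higher and 7 lower. Itga4, a subunit of the integrin VLA-4, was at 6.46 and 5.99 FPKM in WT and 57.8 and 67.9 FPKM in Tnfr1-/-.

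Myeloid transcription factors changed in number both ways, with 15 higher and 9 lower of 34 listed under both scalings. Egr2, a factor of macrophages and activated lymphocytes, was at 53.1 and 52.2 FPKM in WT and 0.796 and 1.66 FPKM in Tnfr1-/-. Tfec, of the MITF family, was at 44.9 and 43.6 FPKM against 1.25 and 1.01 FPKM, and Batf3, needed for a subset of dendritic cells, had a difference of -3.02. Ets1, a lymphoid factor, was at 7.20 and 8.14 FPKM in WT and 71.4 and 72.5 FPKM in Tnfr1-/-, and Nfe2, a factor of megakaryocytes and red cells, had a difference of 2.64.

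Within 2 Mb of Tnfrsf1a 39 genes were listed, 16 lower and 3 higher under both scalings, with medians of -1.35 and -0.45. Of all listed genes 22.1% were lower and 14.1% higher under both, with medians of -0.83 and -0.03. The nearest was Ltbr, the lymphotoxin beta receptor, 35.5 kb away, at 49.4 and 46.4 FPKM in WT and 17.0 and 19.7 FPKM in Tnfr1-/-, which was called as deposited (-1.34) but not scaled (-0.23). Cd9, a tetraspanin, was lower (1152 and 1158 against 134 and 85.1 FPKM), and Cd27, a TNF receptor of lymphocytes, was higher (1.63 and 1.39 against 6.82 and 9.84 FPKM). Mrpl51, Gapdh and Vwf, next in distance, were lower under both scalings. Tnfr2-/- samples, whose targeted gene is on another chromosome, also had low values, with Cd9 at 154 and 87.2 FPKM, Gapdh at 2.96 and 2.33 FPKM and Vwf at 0.449 and 0.359 FPKM. The difference between the knockouts did not pass the limma test for Cd9 (adjusted p = 0.884), Gapdh (0.710), Vwf (0.462), Mrpl51 (0.133) or Ltbr (0.0707). For Cd27, at 1.62 and 2.24 FPKM in Tnfr2-/-, it passed as deposited (1.66, adjusted p = 0.0378). The part of the locus in these differences was not tested. Pianp, 346 kb away, was at 2.97 and 3.28 FPKM in WT and 0.154 and 0.219 FPKM in Tnfr1-/-.

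Compared with the Tnfr2-/- samples, few genes set the Tnfr1-/- samples apart. In the same model 119 genes (1.45%) differed as deposited, 50 higher and 69 lower in Tnfr1-/-, and 208 (2.54%) after scaling, with 105 called in the same direction under both. Pianp was at 3.73 FPKM or more in both Tnfr2-/- samples, so the Tnfr1-/- samples were the low ones of the 3 genotypes (log2 difference -2.04, SE 0.07, adjusted p = 0.00538). Tnfrsf1b was at 11.3 and 14.3 FPKM in Tnfr2-/-, the genotype in which it is targeted, and the difference was 2.09 (adjusted p = 0.0310).

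Padi2, which converts arginine to citrulline in proteins, was at 13.9 and 13.9 FPKM in Tnfr2-/- against 1.39 and 1.85 FPKM in Tnfr1-/-, and the WT samples, at 2.19 and 1.70 FPKM, were near the latter. Ear6, an eosinophil ribonuclease family gene, was at 1.61 and 0.509 FPKM in Tnfr2-/- and 15.5 and 12.5 FPKM in Tnfr1-/-. Sfi1, a centrosome gene, was at 4.74 and 4.05 FPKM against 36.4 and 34.7 FPKM, and Il7r, the interleukin 7 receptor of lymphocytes, at 7.74 and 4.69 FPKM against 26.5 and 40.4 FPKM. Magohb and Pid1 were lower in Tnfr1-/- (-1.60 and -1.47). The number of calls depended on the model, and each of the 8 genes named for the size of their difference from Tnfr2-/- lost its call under at least 1 alternative. With only the 2 knockouts in the model limma called 0 genes, although 1436 had an unadjusted p-value under 0.05. With 1 sample left out the number was between 2 and 662, the highest without Tnfr2-/- replicate 1, and each of the other 5 samples, when left out, took it to between 2 and 6.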

How the data were processed

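The authors extracted RNA from freshly isolated MDSCs, prepared libraries with a SMARTER kit and sequenced single-end reads. The authors deposited FPKM values of 8191 genes in 6 samples (2 per genotype), together with the p-value of their one-way ANOVA over the genotypes. The ANOVA, recomputed here, was within 1% of the deposited p-value for all 8191 genes and its largest value was 0.04995. The deposited p-values were otherwise not used. The submitters' processing notes name mm10, FastQC and edgeR. The aligner and the tool that made the FPKM values are not given in the sources used here. Read numbers behind each value were not recovered, so no counting error is given.

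On log2(FPKM + 1), 1 linear model of the 6 samples was fitted in R 4.3.3 with limma 3.58.1 and tested two-sided with a trended eBayes prior, with Benjamini-Hochberg adjustment over all listed genes, as deposited and after median-ratio scaling over the 7504 genes above 0 in every sample. Genes were called at an adjusted p under 0.05 when they also changed by more than 1.5-fold. Differences and their standard errors (SE) are on the log2(FPKM + 1) scale, which understates changes of low genes. For 2 against 2 samples the smallest two-sided p of an exact test is 0.333. The samples are 2 experiments with pooled animals, so the p-values take in only the spread between such experiments. That spread was 0.0789 (WT), 0.139 (Tnfr1-/-) and 0.219 (Tnfr2-/-) as SD on the log2 scale. The p-values rest on a spread pooled over the genotypes and moderated by the prior, not on these separate SDs. All listed genes had passed the authors' ANOVA in these same samples, which favours genes with a small spread within genotypes. The SDs and p-values may therefore be too low.

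The members and the 42 gene lists were chosen with earlier results of these data known, and lists are described by counts and medians without a test. Named genes are the 12 largest rises and falls among genes called under both scalings with groups that do not overlap, up to 3 of either direction per list, genes the study names, the 4 largest of either direction against Tnfr2-/-, and the 6 genes nearest Tnfrsf1a. Among the genes this rule gave, 1 is not reported here. Ctsd, Gla, Mcoln1, Cxcl3 and Hmgcs1 were named for a motif, Nfkb1 as the remaining member of its list, Lyz2 for its level and Cebpa and Eif2s3y as markers, all with their values known. Positions and transcript lengths come from GENCODE M21 (GRCm38, the same assembly as mm10), which held 8166 of the symbols. Other steps used Python 3.11.15, and figures matplotlib 3.10.9. Alternatives were a pseudocount of 0.1, a mean of at least 1 FPKM, 2 groups only, a replicate block, eBayes with no trend, a 2-fold threshold, other scalings and each sample left out.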

Additional observations from a re-analysis of the deposited data

Results flagged for a closer look

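Differences between the 2 knockouts that passed the test of the difference itself in the model of all 6 samples, in log2(FPKM + 1), Tnfr1-/- minus Tnfr2-/-, were -2.51 for Padi2, -2.04 for Pianp, -1.60 for Magohb and -1.47 for Pid1. They were 2.91 for Ear6, 2.76 for Sfi1, 2.26 for Il7r and 2.09 for Tnfrsf1b. Each of the 8 genes lost its call under at least 1 alternative, and none kept it with the 2 knockouts only or without either Tnfr1-/- sample. With 2 samples per group, samples far from the others could not be looked for within groups.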

How the results depend on the processing

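Against WT, the count of genes higher in Tnfr1-/- as deposited, 1151, was 1908 with median-ratio size factors, 1752 with quantile normalization, 2345 with the same sum over the listed genes and 728 with a fold change over 2. The count of lower genes, 4973, was 1814, 2075 and 1443 under those 3 scalings. With a fold change over 2, 1114 genes were lower after scaling and 728 and 1114 were higher and lower under both scalings. With 1 sample left out, 1118 to 1160 genes were higher and 4785 to 4975 lower as deposited, 1827 to 1960 higher and 1525 to 1865 lower after scaling, and 1118 to 1160 and 1525 to 1865 under both. The other settings moved these counts by less than 1.5 times.

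Deviations of samples with the same replicate number were hardly correlated between groups (0.022 to 0.046). This does not settle whether samples of the same number came from the same experiment. The replicate block gave 1150 higher and 4974 lower genes as deposited. Against Tnfr2-/-, the counts of higher and lower genes, 50 and 69, were 5 and 2 with the replicate block, 6 and 9 without trend, 0 and 0 with the 2 groups only and 21 and 28 with a fold change over 2. Higher genes were 79 with a pseudocount of 0.1 and 119 with median-ratio size factors, and lower genes 146 with a mean of at least 1 FPKM. With 1 sample left out they ranged from 1 to 127 and from 0 to 535; a lone sample was then assumed to vary like the other groups.

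Of 1624 values of 116 of the genes named here against WT under these alternatives, 11 turned in direction. With median-ratio size factors, quantile normalization and the same sum, the differences were 0.71, 0.57 and 0.93 for Nfkb1, 0.56, 0.36 and 0.76 for Scrib and 0.17, 0.10 and 0.39 for Tnfrsf1b. That of Mapk9 was 0.16 with the same sum, and that of Tnf ranged from -0.0027 (without Tnfr1-/- replicate 1) to 0.22 with 1 sample left out. In 8 genes a call was lost under at least 1 alternative, Lyz2 among them, whose difference was 0 with quantile normalization. Against Tnfr2-/-, 54 of 112 values of the 8 named genes lost the call, in 8 of 8 genes. The cause was not tested. The number of samples, 2 per group, limits precision, and the depth behind each value is unknown.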
